A study of Rattus norvegicus with 23 samples.

Results

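Regenerating rat median nerve from the EV repair series at day 7 was set against healthy rat epigastric vein, over every gene row of the count table. The 3 EV day 7 libraries and the 3 healthy vein libraries were taken by their column titles, 6 of the 23 libraries of the series. The genotype of all 6 is given as wild type, and the series describes adult female rats. The EV nerves had been cut, which left a gap, and repaired, and were collected 7 days later. The labels do not spell out EV, and its treatment label names repair of the cut without the muscle-in-vein graft (MIV) that the other repaired series carries. The veins were untreated, with their time given as day 0. The labels give neither the animal behind each library nor its batch. The p-values therefore measure only the spread between libraries within groups, estimated over all 23 of the series. A repaired nerve and an untreated vein differ in tissue, in injury and in time, and these cannot be told apart in this comparison.

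A vein can serve as a conduit that bridges a nerve gap, and its wall is built of smooth muscle cells, an endothelial lining and fibroblasts. After a nerve is cut, macrophages and other immune cells enter the gap, fibroblasts lay down matrix, and Schwann cells leave their myelinating state, divide and migrate in ahead of the growing axons. Vascular smooth muscle cells are known to lower their contractile genes when a vessel is injured or grafted. Bulk RNA from such a sample is a mixture, and a lower level from fewer cells of a type cannot be told apart from less RNA per cell.

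The table held 32545 Ensembl rat gene identifiers, of which 15954 passed a filter on low counts, 7492 had counts but did not pass it, and 9099 had no count in any library. The files do not pair the identifiers with gene names, and none matched a symbol in the reference gene table. The smooth muscle, endothelial, Schwann cell and immune markers, by which the labelled tissues would be checked, were therefore not analysed here. Genes are described instead as groups defined by the tissues and times in which they were abundant, with 2 single identifiers in each direction. Library totals were 13718893, 12757949 and 15268422 counts in EV day 7 and 17209441, 12650952 and 15558800 counts in healthy vein. Between 17829 and 18201 identifiers had a count in each EV day 7 library, against 17016 to 17610 in each vein library.

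Among the healthy tissues, EV day 7 lay closest to vein. The root-mean-square difference over the 15954 genes, on the scale of log2 CPM (counts scaled to a common library size), was 1.14 to 1.41 between EV day 7 and vein libraries, 1.61 to 1.72 between EV day 7 and nerve libraries and 2.41 to 2.50 between EV day 7 and muscle libraries. Within groups it was 0.667 to 0.671 among the EV day 7 libraries and 0.609 to 0.744 among the vein libraries, so the groups lay farther apart than their own libraries did. Against the EV libraries of day 3 the difference was 0.965 to 1.39. Across genes, which are not independent replicates, EV day 7 and vein libraries correlated at 0.887 to 0.920 (Pearson).

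**Figure D1:**
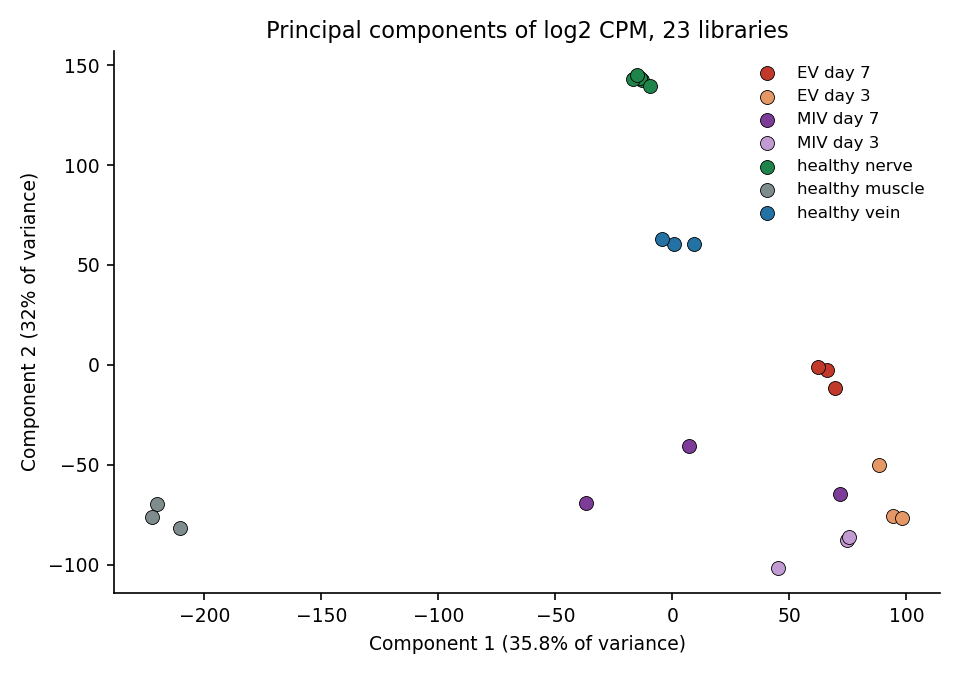
Principal components of log2 CPM over the 15954 genes tested, 1 point per library, with the percent of variance on each axis. The 3 EV day 7 libraries lie together between the EV day 3 libraries and healthy vein on component 2, and all 3 lie above every vein library on component 1.

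The comparison asks how the repaired tissue differs from an untouched vein, gene by gene. Of the 15954 genes, 2401 were higher and 2147 lower in EV day 7 than in vein (edgeR quasi-likelihood test, Benjamini-Hochberg adjusted p under 0.05), which is 15.0% and 13.5% of those tested and 28.5% together. Over every gene tested the log2 fold change had its median at 0.00 and its quartiles at -0.42 and 0.55. The 2 directions differed in size. Among the higher genes the log2 fold change centred on 1.66 (median; quartiles 0.88 and 2.87), and 1004 of them (41.8%) lay more than 2 log2 units above vein. Among the lower genes it centred on -1.02 (median; quartiles -1.88 and -0.62), and 492 of them (22.9%) lay more than 2 log2 units below vein.

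Most of the called genes showed no overlap between the EV day 7 and vein libraries. In 2348 of the 2401 higher genes every EV day 7 library lay above every vein library, and in 2117 of the 2147 lower genes every one lay below. Over all genes tested, called or not, 24.6% and 24.9% showed no overlap in those directions. The called genes were chosen by a test on these same libraries, which favours no overlap, so their counts are a description. A stricter test for a change beyond 2-fold (glmTreat in edgeR, adjusted p under 0.05) called 777 genes higher and 404 lower, 4.87% and 2.53% of those tested. Among the higher genes the median SD between libraries was 0.26 log2 units in EV day 7 and 0.28 in vein, and among the lower genes it was 0.20 in EV day 7 and 0.17 in vein. Over all genes tested it was 0.24 in EV day 7 and 0.20 in vein.

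**Figure D2:**
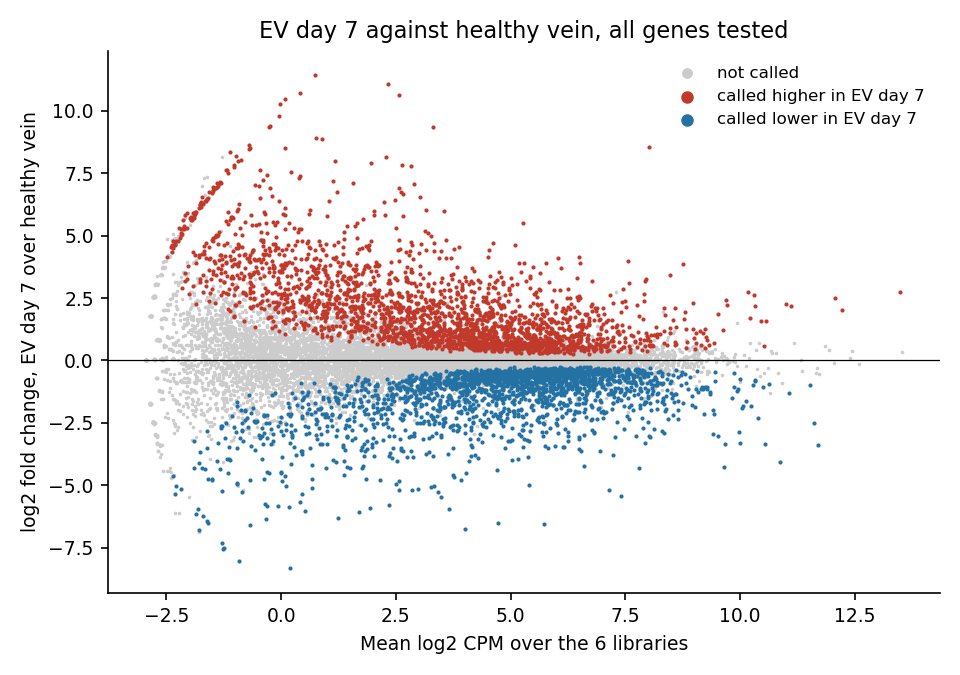
Log2 fold change of EV day 7 over healthy vein against the mean log2 CPM over the 6 libraries, 1 point per gene tested, coloured by the edgeR call. The 2401 genes called higher reach larger changes than the 2147 called lower, and the widest changes in both directions lie among genes with low means.

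Calls in the 2 directions were spread differently over expression level. With genes split into 4 bins of near-equal size by their mean CPM over all 23 libraries, 11.7%, 17.7%, 15.6% and 15.1% were called higher from the lowest to the highest bin. The share called lower was 6.99%, 11.8%, 14.3% and 20.7%. In the highest bin, above a mean of 52.1 CPM, 602 genes were higher (median log2 fold change 1.01) and 826 were lower (median -0.80). In the lowest bin, where the test has few counts to work with, the medians of the called genes were 3.31 and -2.47.

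The most abundant transcripts changed places in part. The 100 most abundant genes of EV day 7 took 27.1% ± 0.371 of its counts (SD, n = 3), and the 100 most abundant of vein took 25.1% ± 1.51 of the vein counts (SD, n = 3). Of these, 60 genes were on both lists. Among the EV day 7 list, 35 were called higher than vein and 11 lower. Among the vein list, 8 were called higher in EV day 7 and 50 lower (median log2 fold change of the list -0.76). In the highest bin of mean level, 15.1% of genes were called higher and 20.7% lower. Per 100 genes, the 35 higher and the 50 lower lay above those shares, and the 11 lower and the 8 higher lay below them. Choosing genes by their level in 1 of the 2 groups favours higher calls in the EV day 7 list and lower calls in the vein list. Together the 2401 higher genes took 26.7% ± 0.574 of the counts in EV day 7 and 8.38% ± 0.612 in vein (SD, n = 3 each). The 2147 lower genes took 13.6% ± 0.583 in EV day 7 and 33.4% ± 1.54 in vein (SD, n = 3 each). These shares describe genes chosen by this same comparison and are not a test.

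ENSRNOG00000019445 ranked first by log2 fold change among the higher genes that reached a mean of 10 CPM in EV day 7 without overlap. It stood at 22.3, 29.05 and 15.3 CPM in the EV day 7 libraries and had no count in any of the 3 vein libraries. All EV day 7 libraries carried it, at 289 to 450 counts each. Its level was at least 384-fold higher in EV day 7 (edgeR adjusted p = 4.48e-06), taking 3 counts over the vein group as the floor, which covers counting error only. It was also present in healthy nerve, at a lowest, median and highest of 7.57, 19.8 and 25.7 CPM over 5 libraries, and at 0.490 to 3.07 CPM in healthy muscle. The EV day 7 libraries thus lay at the level of healthy nerve, with overlap.

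ENSRNOG00000030187 ranked next and was close to absent from all 3 healthy tissues. It stood at 256, 242 and 36.3 CPM in the EV day 7 libraries, against 0.152, 0.0694 and 0 CPM in the vein libraries. Replicate 3 of EV day 7 lay well below the other 2, yet held 687 counts where the 3 vein libraries held 4 together. The ratio of the summed levels was 2241 (95% exact interval 875 to 8227, counting error only), with an edgeR adjusted p of 5.99e-06. No healthy nerve library exceeded 0.246 CPM, and the muscle libraries had no count. In EV day 3 it stood at 29.6, 139 and 63.7 CPM, and the difference of EV day 7 from that did not pass the test (log2 difference 1.20, edgeR adjusted p = 0.200).

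ENSRNOG00000002331 ranked first by log2 fold change among the lower genes that reached a mean of 10 CPM in vein without overlap. It stood at 2.24, 0.775 and 1.58 CPM in EV day 7, against 160, 187 and 149 CPM in vein. Its log2 fold change was -6.74 ± 0.79 (SE; edgeR adjusted p = 6.64e-06). Healthy nerve held 23.02 to 89.04 CPM and healthy muscle 5.55 to 7.61 CPM, again above every EV day 7 library. EV day 3 held 0.467, 0.192 and 0.949 CPM, which overlapped with day 7 (log2 difference 1.49, edgeR adjusted p = 0.211).

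ENSRNOG00000003510 ranked next among the lower genes. It stood at 3.24, 7.94 and 5.76 CPM in EV day 7, against 407, 689 and 478 CPM in vein. Its log2 fold change was -6.54 ± 0.59 (SE; edgeR adjusted p = 5.79e-07). Healthy nerve also carried it, at 131 to 367 CPM, and healthy muscle at 44.1 to 77.1 CPM, so EV day 7 lay below every healthy library. At day 3 it had been lower still, at 1.33, 0.576 and 0.178 CPM, and it was higher at day 7 than at day 3 by 3.03 log2 units (edgeR adjusted p = 0.00118).

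**Figure D3:**
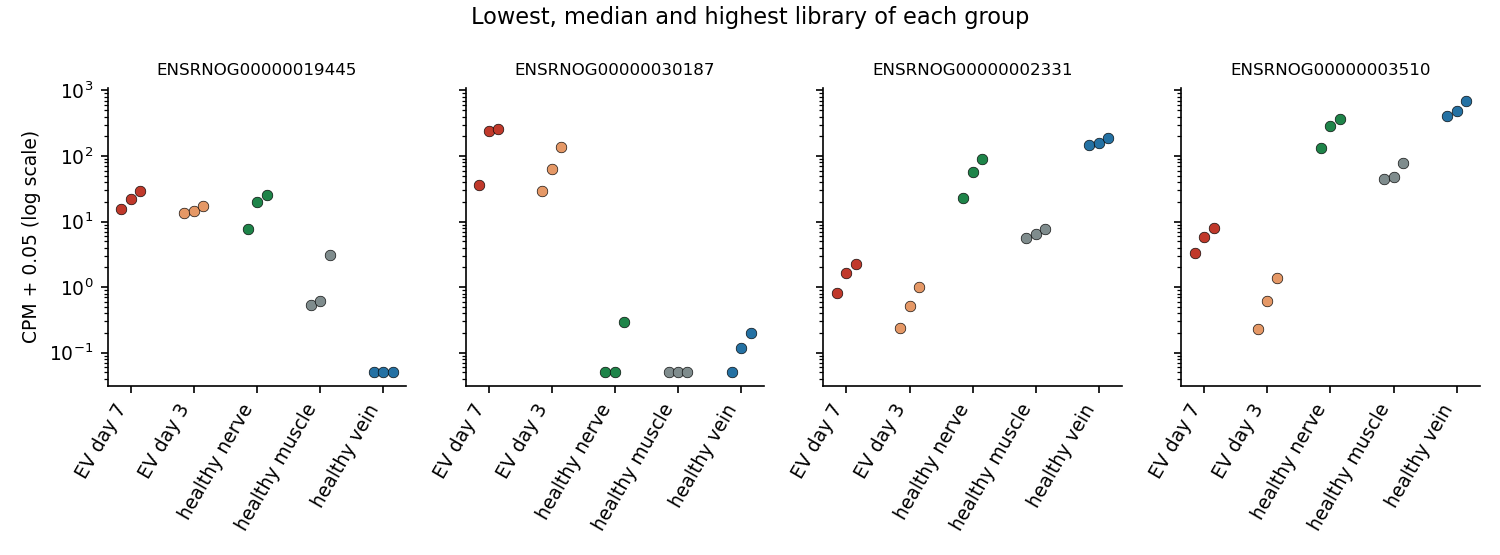
CPM plus 0.05 on a log axis for the 4 identifiers, with the lowest, median and highest library of each group as points, so that healthy nerve, with 5 libraries, shows 3 of them. For the first 2 genes every EV day 7 library lies above every vein library, and for the other 2 every EV day 7 library lies below every library of the 3 healthy tissues.

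A number of genes had no count at all in 1 of the 2 groups. Counts in EV day 7 and none in vein were found for 1714 identifiers, of which 184 passed the filter and 80 were called higher. Of those 80, 74 had counts in all 3 EV day 7 libraries, 79 had counts in EV day 3 and 68 had counts in healthy nerve. Their levels were low for the most part, and 4 of the 184 reached a mean of 10 CPM in EV day 7. In the opposite direction, 1017 identifiers had counts in vein and none in EV day 7, of which 89 passed the filter and 14 were called lower. All 14 had counts in healthy nerve and 5 in EV day 3, and the most abundant of the 89 stood at 2.15 CPM in vein. The median of the 184 was 0.21 CPM in EV day 7, and that of the 89 was 0.046 CPM in vein. Over all genes tested, 15.0% were called higher and 13.5% lower, and the 14 of 89 lay close to the latter. Without a count in 1 group a gene can be called in 1 direction only, so these calls are a description. Genes this low could pass the filter through other groups, which favours counts there, so the detections are a description too. Before the filter, 896 of the 1714 and 623 of the 1017 had counts in healthy nerve.

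The level in the other healthy tissues placed the called genes further. Of the 2401 higher genes, 1652 (68.8%) had their highest mean in EV day 7 when it was ranked with vein, nerve and muscle, against 24.5% of all genes tested. Nerve held the highest mean for 351 (14.6%, against 22.2% of all genes tested) and muscle for 398 (16.6%, against 34.7%). In 1225 of the higher genes (51.02%) every EV day 7 library exceeded all 11 healthy libraries, against 10.51% of all genes tested. Of the 2147 lower genes, 1036 (48.3%) had their lowest mean in EV day 7, against 21.8% of all genes tested, and 843 (39.3%) had it in muscle, against 42.6%. In 611 of the lower genes (28.5%) every EV day 7 library lay below all 11 healthy libraries, against 6.35% of all genes tested. Being called against vein favours these ranks, so the shares are a description.

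Genes above or below healthy nerve and muscle in EV day 3 were then followed into this comparison. The contrasts that define these groups leave out EV day 7 and vein. Those libraries still entered the filter, the scaling and the shared estimate of spread. Genes above both healthy nerve and healthy muscle in EV day 3 (more than 1 log2 unit, edgeR adjusted p under 0.05 in each) numbered 1995. Of these, 1069 were higher in EV day 7 than in vein, 43 were lower and 883 were not called. The 53.6% called higher compares with 15.0% of all genes tested. The group's log2 fold change centred on 1.20 (median; quartiles 0.43 and 2.41), and its median in the single EV day 7 libraries was 1.09, 1.16 and 1.08 against the vein mean. These 1069 genes made up 44.5% of all genes higher than vein. The group of 1995 also held 362 genes (18.1%) that were above nerve and muscle in healthy vein. Without EV day 7 replicate 2, or without vein replicate 2, the 43 lower genes became 27 and 28, and in a fit of the 6 libraries alone they became 68.

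Their level at day 7 lay between those of EV day 3 and vein. The median gene of the group stood at 14.0 CPM in EV day 7 and at 25.2 CPM in EV day 3, against 3.65 CPM in nerve, 2.04 CPM in muscle and 5.36 CPM in vein. The group took 21.03%, 21.3% and 21.3% of the counts in the EV day 7 libraries, against 9.55%, 9.52% and 9.87% in the vein libraries, with no overlap. Set beside it, the median log2 difference between EV day 3 and vein was 1.97, a comparison that shares the vein libraries, and the group was chosen for being high at day 3. Within the group, 633 genes were also higher in healthy nerve than in healthy muscle, and 59.7% of them were higher in EV day 7 than in vein. Of 76 that were higher in muscle than in nerve, 72.4% were, and of the remaining 1286, 49.5% were. Among genes in neither EV day 3 group, the matching shares were 14.4%, 10.2% and 7.74%. The differences between the subsets were not tested.

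Genes below both nerve and muscle in EV day 3 numbered 1275 and went the other way. Of these, 485 were lower in EV day 7 than in vein (38.04%, against 13.5% of all genes tested), 32 were higher and 758 were not called (median log2 fold change of the group -0.64). The 32 became 19 without vein replicate 2 and 21 without vein replicate 1. The median gene stood at 8.26 CPM in EV day 7 and 3.51 CPM in EV day 3, against 25.3 CPM in nerve, 30.7 CPM in muscle and 13.8 CPM in vein. The group took 4.64%, 4.40% and 4.80% of the counts in EV day 7, against 10.1%, 10.1% and 10.8% in vein. Of the 258 that were higher in nerve than in muscle, 46.1% were lower than vein (median -1.08), and of the 385 that were higher in muscle than in nerve, 32.7% were (median -0.64). That difference between the subsets was not tested.

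**Figure D4:**
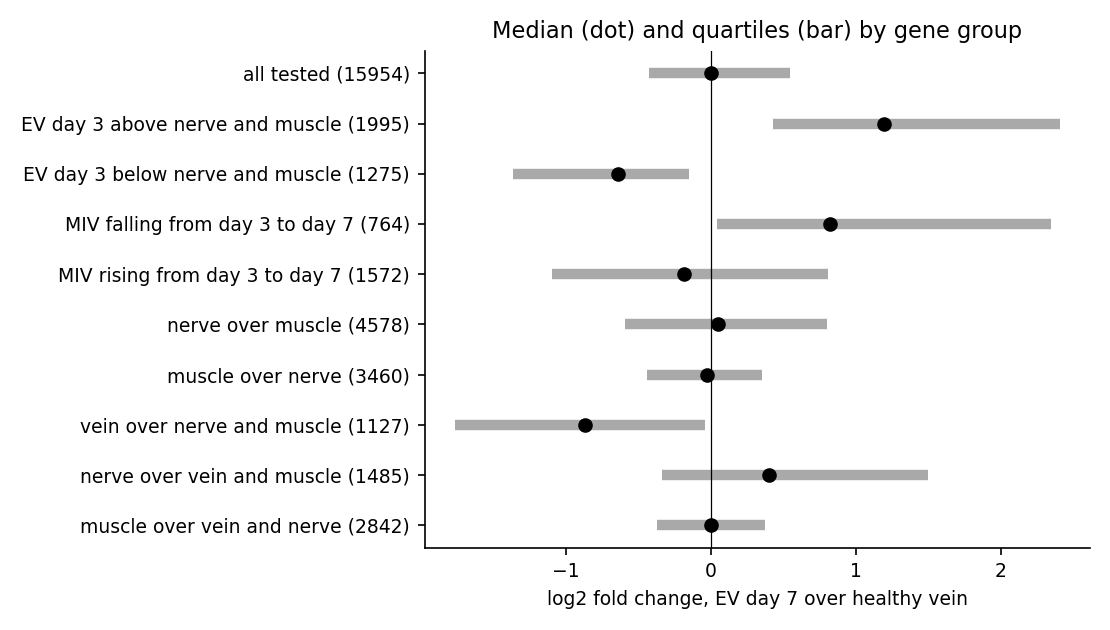
Median (dot) and quartiles (bar) of the log2 fold change of EV day 7 over healthy vein for each gene group, with the number of genes in brackets. The day 3 groups lie on opposite sides of 0, at 1.20 and -0.64, and the genes above both other tissues in healthy vein lie at -0.87.

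The time course of the MIV series gave 2 further groups, whose contrast uses neither EV day 7 nor vein, within the same shared fit. Genes that fell from day 3 to day 7 in MIV (764, by more than 1 log2 unit with edgeR adjusted p under 0.05) were higher in EV day 7 than in vein for 331 and lower for 46, or 43.3% and 6.02%, against 15.0% and 13.5% of all genes tested (median log2 fold change 0.82). Their median gene stood at 7.87 CPM in EV day 7 and 25.2 CPM in EV day 3, against 3.87 CPM in vein, and the group took 3.37%, 3.18% and 3.00% of the counts in EV day 7, against 2.47%, 2.56% and 2.51% in vein. Genes that rose from day 3 to day 7 in MIV (1572) were higher for 210 and lower for 350, or 13.4% and 22.3% (median -0.19, quartiles -1.09 and 0.81). The share called higher was thus near that of all genes tested. Their median gene stood at 7.38 CPM in EV day 7 and 2.17 CPM in EV day 3, against 9.08 CPM in nerve and 8.53 CPM in vein. The MIV groups shared genes with the day 3 groups. Of the falling genes, 503 (65.8%) were also above nerve and muscle in EV day 3. Of the rising genes, 452 (28.8%) were also below both. The falling genes are thus for the most part not a separate set. The MIV day 7 libraries differed among themselves, and the MIV groups changed in size when 1 of them was left out. Without MIV day 7 replicate 2, the falling genes numbered 1105, of which 529 were higher than vein. With each of the 3 left out in turn, the share of falling genes that was higher than vein ran from 40.2% to 47.9%, and the share of rising genes that was lower ran from 19.8% to 23.6%. The median of the rising genes depended on single libraries. It was -0.05, -0.29 and -0.15 without MIV day 7 replicates 1, 2 and 3, and -0.12 without vein replicate 3.

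Genes of the healthy nerve were compared next. The 4578 genes higher in nerve than in muscle were called in both directions, 917 higher (20.03%) and 708 lower (15.5%) in EV day 7 than in vein, and their log2 fold change centred on 0.05 (median; quartiles -0.59 and 0.80). Of the 3460 genes higher in muscle than in nerve, 368 were called higher (10.6%) and 453 lower (13.1%), with a median of -0.03. Over all genes tested 15.0% were called higher and 13.5% lower, and the share of lower calls in both groups was close to that. The 453 became 301 without EV day 7 replicate 2. Neither median differed from that of all genes by more than 0.1 log2 units.

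The remaining 3 groups, defined with the vein libraries, hold genes abundant in 1 healthy tissue, and their choice by vein level favours the direction they show. The 1127 genes above nerve and muscle in healthy vein were lower in EV day 7 for 454 (40.3%) and higher for 69 (6.12%), and their log2 fold change centred on -0.87 (median; quartiles -1.76 and -0.04). The 604 others were not called. They took 9.60%, 9.21% and 9.79% of the counts in EV day 7, against 18.7%, 18.6% and 16.3% in vein. In healthy nerve they took 3.71% ± 0.234 (SD, n = 5), so the EV day 7 share lay between those of the 2 tissues. Over all genes tested, 13.5% were lower and 15.0% higher. The 69 became 45 without vein replicate 2 and 110 in a fit of the 6 libraries alone. When the group was chosen without 1 vein library and measured against that library alone, its median was -0.87, -0.71 and -0.80, and at most 30.8% of its genes lay above that library. Of all genes in those fits (16292 to 16322), 50.8% to 51.2% lay above it. The same EV day 7 libraries were used each time, so these medians are not independent.

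The 1485 genes above vein and muscle in healthy nerve were higher in EV day 7 than in vein for 400 (26.9%) and lower for 119 (8.01%), with a median of 0.40, where all genes tested had 15.0% and 13.5%. The 119 became 77 without EV day 7 replicate 2. They took 5.87%, 5.92% and 5.73% of the counts in EV day 7, against 3.63%, 3.71% and 4.17% in vein, with no overlap. In healthy nerve they took 26.3% ± 1.55 (SD, n = 5), and the median gene stood at 3.64 CPM in EV day 7, 20.7 CPM in nerve and 2.17 CPM in vein. Chosen without 1 vein library and measured against it, the group had medians of 0.29, 0.37 and 0.20. Between 60.5% and 68.5% of its genes lay above that library, against 50.8% to 51.2% of all genes in those fits. These medians share the EV day 7 libraries too. The 2842 genes above vein and nerve in healthy muscle were higher for 313 and lower for 303 (11.01% and 10.7%), both below the shares of all genes tested. The 303 became 195 without EV day 7 replicate 2, and 197 and 196 without vein replicates 1 and 2. They took 16.99%, 17.1% and 16.1% of the counts in EV day 7, against 16.5%, 17.3% and 15.8% in vein, which overlapped.

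**Figure D5:**
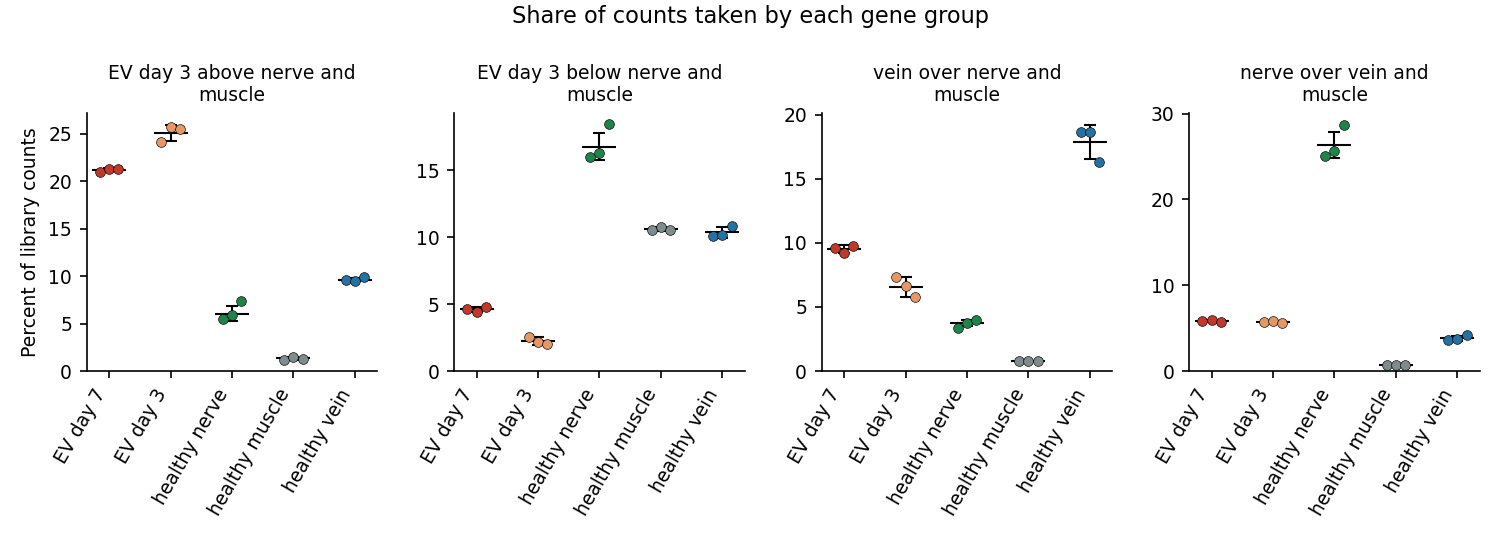
Percent of library counts taken by 4 gene groups in EV day 7, EV day 3, healthy nerve, healthy muscle and healthy vein. Points are the 3 libraries of a group, or the lowest, median and highest of the 5 nerve libraries, and bars are the mean and SD over all libraries of the group. In all 4 panels the EV day 7 points lie clear of the vein points, and genes above both other tissues in vein hold 9.21% to 9.79% in EV day 7 against 16.3% to 18.7% in vein.

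The difference from vein was not the same at day 7 as at day 3. The direct comparison of EV day 7 with EV day 3, in which the vein libraries cancel, called 2280 genes higher and 2253 lower (14.3% and 14.1% of those tested, 28.4% together; edgeR adjusted p under 0.05). Over the genes above nerve and muscle in vein, the median log2 difference from vein was -0.87 at day 7 and -1.61 at day 3, and over the genes below nerve and muscle in EV day 3 it was -0.64 and -1.59. Over the genes above vein and muscle in healthy nerve, the median difference from vein was 0.40 at day 7 and 0.015 at day 3. The medians thus did not move toward vein in every group. All these pairs share the vein libraries, and the genes below nerve and muscle in EV day 3 were chosen for being low at day 3.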

How the data were processed

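RNA-seq counts were analysed for 3 EV day 7 and 3 healthy vein libraries within all 23 of the series, grouped by title. TRIzol extraction and poly-T selection preceded library construction without strand information, per the labels' protocols, so reads of a gene and of its antisense partner are mixed. CASAVA and HISAT2 are named in the submitters' processing notes. Which counter, build and annotation were used is not given in the sources used here. How reads shared by paralogs were treated is likewise unknown, so near-identical genes have uncertain counts. The authors deposited raw counts per gene identifier and library, without normalization, and 0 columns were left over. Replicate pairs differed by more than sampling noise.

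The fit used edgeR 4.0.16 under R 4.3.3. Its steps were the filterByExpr filter (minimum count 10, minimum total 15), TMM factors, robust quasi-likelihood fit with 1 coefficient per group, and Benjamini-Hochberg adjustment (threshold 0.05). All 23 libraries in 7 groups shared the estimate of spread, which was made for each gene. Over genes, the common biological coefficient of variation was 31.4%. CPM used library sizes times TMM factors, and log2 CPM a prior count of 2. The SE of a log2 fold change was its size over the square root of the F statistic. A share of counts is of all counts in a library. The test was also run on counts simulated from its own fitted means and spread, with few genes changed. That checks the code and cannot check the model on the real data. Alternatives were DESeq2 1.42.0, other scalings, no filter, the 6 libraries alone, a replicate block, a 2-fold test and each library left out. The rule for named genes asked for an adjusted p under 0.05, 10 CPM in the higher group, no overlap and a symbol, with 2 identifiers in each direction where no symbols could be had. The 41 lists fixed by symbol could not be measured. The members, lists and gene groups were chosen with earlier results of these data known. No sequences are shown, because identifiers were not paired with names.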

Additional observations from a re-analysis of the deposited data

Results flagged for a closer look

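The difference between EV and vein changed between day 7 and day 3 for 4533 genes, by the direct test of EV day 7 against EV day 3 (edgeR adjusted p under 0.05). For ENSRNOG00000003510 the same test gave a log2 difference of 3.03 (edgeR adjusted p = 0.00118), with 5.65 CPM ± 2.35 at day 7 and 0.696 CPM ± 0.587 at day 3 (SD, n = 3 each), both far below the 525 CPM ± 147 of vein (SD, n = 3).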

How the results depend on the processing

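The comparison of EV day 7 with vein called 4058 to 5246 genes, against 4548, under other scalings, DESeq2, no filter, the 6 libraries alone and the replicate block, and 3238 to 3968 with each of the 6 libraries left out in turn (1719 to 2100 higher, 1467 to 1868 lower). No gene called under one of these and in the reported fit changed sign. The test for a change beyond 2-fold called 1181 genes (777 higher, 404 lower), and for EV day 7 against EV day 3 642 (407 higher, 235 lower), fewer by its construction. Same-numbered EV day 7 and vein libraries correlated in their deviations at 0.0626, 0.0433 and 0.116, each the highest for that EV day 7 library, which is a hint from the data and not the design. The replicate block called 4595 genes against vein. For EV day 7 against EV day 3 the replicate block, in the 6 libraries, called 2464 (1271 higher, 1193 lower) against 4533, with same-numbered libraries correlating at 0.0537, 0.0159 and -0.131, and single left-out libraries gave 3264 to 4573. The 4 named identifiers stayed past the threshold against vein in all 14 alternatives (highest adjusted p = 0.00237), and ENSRNOG00000003510 did so against day 3 (highest adjusted p = 0.0475). Group counts that moved by over 1.5 times with 1 library left out, or in the 6 libraries alone, are given beside their groups. With the replicate block, the 43 lower genes of the day 3 group became 73, and the 69 higher vein genes became 104. The lowest of the 4 bins of level had the fewest calls.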
